A study of Mus musculus with 4 samples.

Results

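The endoplasmic reticulum folding and unfolded protein response genes described here are 34 of the 24787 gene names with a probe on the arrays. They were taken by gene name, each by its brightest probe, and they comprise lumenal chaperones, disulphide isomerases, co-chaperones, degradation factors, stress sensors and the transcription factors and targets downstream of those sensors. The list was proposed with results of these arrays in view, so its counts and medians below are a description and no test of them was made. All 34 genes were well above background on all 4 arrays, so no member was lost to the filter on dim probes.

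Newly made secretory and membrane proteins enter the endoplasmic reticulum, where Hsp70- and Hsp90-type chaperones, lectin chaperones and disulphide isomerases fold them. When unfolded proteins accumulate, the sensors encoded by Ern1, Eif2ak3 and Atf6 signal to the nucleus through the transcription factors encoded by Xbp1, Atf4 and Atf6, and chaperone, degradation and amino acid stress genes are transcribed. Neurons carry a large load of secreted and membrane proteins, and loss of the organelle's calcium also induces several of these genes.

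The RNA came from prefrontal cortex of B6J mice aged 3 months, whose diet held starch or sucrose from weaning on postnatal day 21 and lasted some 70 days. The groups were wild-type mice on starch, which were the control, wild-type mice on sucrose, Glo1 heterozygous mice on starch and Glo1 heterozygous mice on sucrose. Glo1 encodes glyoxalase 1, which detoxifies methylglyoxal. Each group was 1 single-colour Agilent array hybridised with 1 pool of RNA from 3 mice, so the pool hides the spread between mice, no difference has a replicate error, and no p-value is given.

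A level is a probe's processed signal as a multiple of the 75th percentile of the non-control spots of its array, and a difference is the log2 ratio of 2 such levels of the same probe. A gene was called higher or lower at 1.5-fold, a log2 difference of 0.585. The 75th percentile was between 1780.4 and 1928.9 intensity units, between 77.6% and 80.2% of spots were well above background, and no spot was saturated. Glo1 had levels of 4.04 and 5.53 (starch and sucrose) in wild-type mice and 2.74 and 3.04 in heterozygotes, so the lower Glo1 signal went with the heterozygous label on both diets. All 10 cortical neuron markers were well above background on every array, with summed levels between 151 and 177. They were not level between the diets: all 10 were higher on sucrose in wild-type mice, with a median difference of 0.22, whereas 5 were higher and 5 lower in heterozygotes, with a median of -0.02. Their part in the chaperone differences below was not tested. The heterozygous sucrose array stood apart in its choroid plexus markers, whose summed level was 73.3 there against 1.39 to 2.63 on the other arrays. The diet difference in wild-type mice does not use that array, but there too 9 of 11 measured choroid plexus markers were higher on sucrose. Of the 11, 4 were higher by 1.5-fold or more, where 2.25% of all genes were. Another 1, Aqp1, was lower at -2.11, where 3.47% were lower by 1.5-fold. The sum was 1.39 on starch and 2.63 on sucrose, of which Ttr made 0.26 and 1.42. The median level was 0.079 and 0.074. The part of the choroid plexus markers in the differences below was not tested. Striatal markers summed, on starch and then sucrose, to 33.7 and 54.7 in wild-type mice and to 51.1 and 28.9 in heterozygotes. In these bulk samples, fewer cells of a type and less RNA per cell cannot be told apart.

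Many chaperone promoters carry the endoplasmic reticulum stress element, which is CCAAT, 9 bases of any kind and CCACG, and to which ATF6 and XBP1 bind together with the CCAAT-binding factor NF-Y. It was searched on both strands in RefSeq promoter windows of 300 bases (GRCm38.p6, 250 before to 50 after the gene's start), which were given for 29 of the 34 genes. The exact letters were present in the windows of 9 genes, or 31.0% of the 29, and in 39 of all 32851 windows, or 0.12%. The genes were listed by function and the element is known from such genes, so these shares are given with no test. The elements are shown as a feature of these 9 genes that was not read from the arrays. Each is written 5′ to 3′ in the direction of the motif, with the letters that the motif fixes in capitals.
Hspa5, 65 bases before the start: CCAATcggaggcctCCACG
Hsp90b1, 212 bases before: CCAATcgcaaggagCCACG
Hsp90b1, 107 bases before, on the opposite strand: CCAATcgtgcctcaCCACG
Pdia6, 98 bases before: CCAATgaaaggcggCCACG
Calr, 162 bases before, on the opposite strand: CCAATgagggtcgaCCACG
Canx, 145 bases before: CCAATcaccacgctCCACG
Dnajc3, 105 bases before: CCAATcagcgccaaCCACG
Creld2, 126 bases before, on the opposite strand: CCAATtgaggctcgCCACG
Derl3, 156 bases before, on the opposite strand: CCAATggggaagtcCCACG
Syvn1, 44 bases before: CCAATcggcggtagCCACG

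Of the 5 genes that were called lower on sucrose in both genotypes, Hspa5, Derl3 and Creld2 held an exact element, Sdf2l1 held none and Manf had no window. The 190 bases before the start are shown for Hspa5, Derl3, Creld2 and Sdf2l1 along the gene's strand, with the element in capitals as it reads on that strand. The Sdf2l1 window holds CCAAT and CCACG letters but not at the fixed spacing, which says only that the exact motif is not in these bases.
Hspa5, chr2:34771900-34772089, plus strand: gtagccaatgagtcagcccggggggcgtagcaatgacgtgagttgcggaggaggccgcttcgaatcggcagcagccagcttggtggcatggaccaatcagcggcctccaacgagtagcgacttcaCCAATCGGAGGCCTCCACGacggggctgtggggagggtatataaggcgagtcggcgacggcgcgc
Derl3, chr10:75893208-75893397, plus strand: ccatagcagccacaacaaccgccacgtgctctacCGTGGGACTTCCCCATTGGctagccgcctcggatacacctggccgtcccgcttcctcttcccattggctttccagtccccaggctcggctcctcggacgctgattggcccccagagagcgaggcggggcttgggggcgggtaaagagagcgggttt
Creld2, chr15:88819456-88819645, plus strand: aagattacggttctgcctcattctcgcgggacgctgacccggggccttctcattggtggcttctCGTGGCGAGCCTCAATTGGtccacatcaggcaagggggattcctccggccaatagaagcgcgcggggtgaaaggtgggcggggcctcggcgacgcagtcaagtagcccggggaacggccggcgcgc
Sdf2l1, chr16:17132384-17132573, minus strand: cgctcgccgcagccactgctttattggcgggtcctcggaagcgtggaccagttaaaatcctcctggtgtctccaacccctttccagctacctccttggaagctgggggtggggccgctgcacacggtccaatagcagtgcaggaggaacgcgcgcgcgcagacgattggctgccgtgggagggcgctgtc

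Both sucrose arrays lay below both starch arrays for 24 of the 34 genes and above them for 1, Ssr1, and the other 9 overlapped. Over all 19166 genes measured, 20.4% had both sucrose arrays below and 22.3% both above. In wild-type mice 28 of the 34 genes were lower on sucrose, where 50.4% of all genes were, 7 of them by 1.5-fold or more and none of the 34 higher by 1.5-fold. The background for a call in that comparison was 3.47% lower and 2.25% higher. In heterozygotes 31 of the 34 were lower, where 49.7% of all genes were, 6 of them by 1.5-fold or more and none higher, against a background of 1.97% lower and 3.56% higher. The median difference of the 34 genes was -0.26 in wild-type and -0.22 in heterozygotes, where the median over all genes was -0.002 and 0.001. Lower in both genotypes were 26 genes, or 76.5%, against 30.5% of all genes. Lower by 1.5-fold in both were 5 genes, Sdf2l1, Derl3, Manf, Creld2 and Hspa5, against 0.798% of all genes, and none was higher by 1.5-fold in both, against 0.579%. At a log2 difference of -0.32 or less in both, 10 genes were lower, against 2.57%. The 2 diet differences share no array, but they entered the choice of the list, so nothing further is read from these counts.

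**Figure D1:**
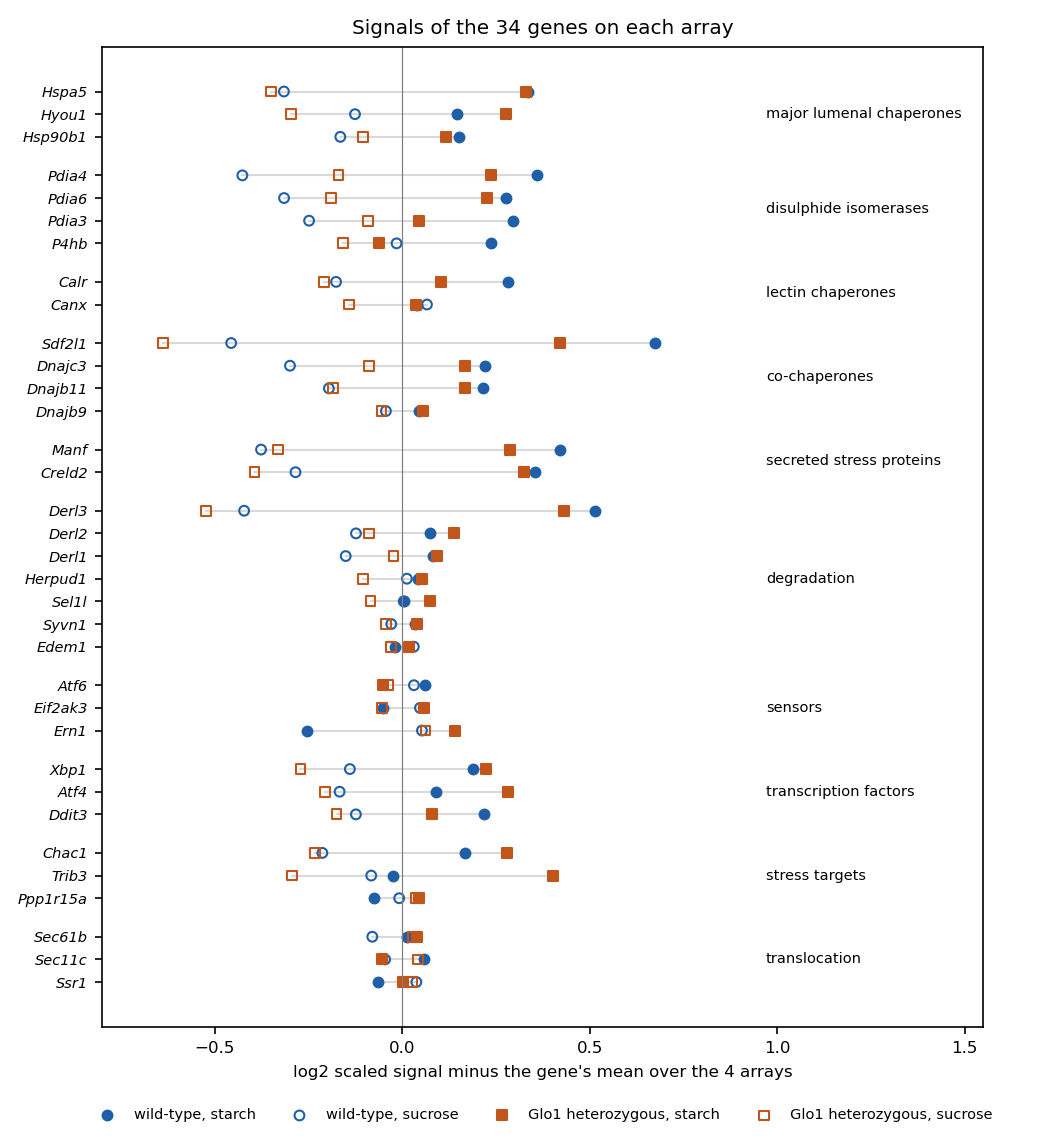
Log2 level of each of the 34 genes on each array, minus the gene's mean over the 4 arrays (horizontal axis), with genes in rows grouped by role; circles are wild-type and squares Glo1 heterozygous mice, filled symbols starch and open symbols sucrose, 1 pooled array each. Filled and open symbols separate for 24 genes with the open ones to the left, most widely for Sdf2l1 and Derl3, while sensors and translocation genes overlap or lie close together.

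Hspa5 encodes BiP, the Hsp70 chaperone of the organelle, which binds unfolded chains and holds the stress sensors inactive. Its level, given here and below for starch and then sucrose, was 25.9 and 16.5 in wild-type mice, and 25.8 and 16.1 in heterozygotes. The starch arrays were nearly equal, as were the sucrose arrays, and the diets did not overlap. The differences were -0.65 and -0.68, so sucrose gave 63.6% of the starch signal in wild-type and 62.4% in heterozygotes. The probe lies at chr2:34631913-34631972 (mm9, the build of the files), and both other Hspa5 probes had differences of -0.92 and -0.89 in wild-type and -0.72 and -0.80 in heterozygotes. Hsp90b1, which encodes the Hsp90 chaperone GRP94, had levels of 27.3 and 21.96 in wild-type and 26.7 and 22.9 in heterozygotes, with differences of -0.32 and -0.22 that did not reach the 1.5-fold call. Hyou1, an Hsp70-related nucleotide exchange factor of BiP, had dim levels of 0.100 and 0.0830 in wild-type and 0.110 and 0.0737 in heterozygotes. Its differences were -0.27 and -0.58, and its 3 other probes gave values of 0.70, -0.53 and -0.07 in wild-type mice, which differ in direction, and -0.04, -0.15 and -0.20 in heterozygotes. The mean over probes was -0.04 in wild-type and -0.24 in heterozygotes.

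The 4 disulphide isomerases, which form and rearrange disulphide bonds, were all lower on sucrose in both genotypes, where 30.5% of all genes were. Pdia4 had levels of 0.401 and 0.233 in wild-type and 0.368 and 0.278 in heterozygotes, differences of -0.79 and -0.41. Pdia6, a further thioredoxin-type isomerase, had levels of 23.4 and 15.5 in wild-type and 22.6 and 16.9 in heterozygotes, differences of -0.59 and -0.42. Both genes were past 1.5-fold in wild-type mice and short of it in heterozygotes, a contrast that was not tested. The wild-type value of Pdia6 was also short of it under quantile normalisation, at -0.56, and under cyclic loess, at -0.58. For both genes the sucrose arrays lay below the starch arrays. Pdia3, the isomerase that acts with the lectin chaperones, had differences of -0.54 and -0.14, and P4hb, the founding protein disulphide isomerase, of -0.25 and -0.10. The wild-type difference was the larger in size for all 4 isomerases, with medians of -0.57 in wild-type and -0.27 in heterozygotes. The interaction, which is the heterozygous diet difference minus the wild-type diet difference, was between 0.16 and 0.41 for them, with no replicate to set it against. Over all genes 49.2% had a negative interaction. On the starch arrays the 4 isomerases were lower in heterozygous than in wild-type mice, where 54.6% of all genes were. Their differences there were between -0.30 and -0.05, though Pdia6 lay at 0.003 under quantile normalisation.

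The lectin chaperones, which hold glycoproteins during folding, differed from each other. Calr, encoding calreticulin in the lumen, had levels of 11.1 and 8.10 in wild-type and 9.83 and 7.93 in heterozygotes, with differences of -0.46 and -0.31. Canx, encoding the membrane-bound calnexin, had levels of 21.1 and 21.5 in wild-type and 21.0 and 18.6 in heterozygotes, with differences of 0.03 and -0.18. Only Calr had both sucrose arrays below both starch arrays.

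Sdf2l1 had the lowest values of all 34 genes in both diet comparisons. It encodes a lumenal component of chaperone complexes that is strongly induced by stress of the organelle. Its levels were 1.003 and 0.458 in wild-type mice and 0.842 and 0.404 in heterozygotes, with both sucrose arrays far below both starch arrays. The differences were -1.13 and -1.06, so the sucrose signal was 45.7% and 48.0% of the starch signal. It was the only member past 2-fold in both genotypes, and its single probe lies at chr16:17130426-17130485 (mm9). Dnajc3, encoding the BiP co-chaperone and kinase inhibitor P58IPK, had levels of 0.888 and 0.619 in wild-type and 0.855 and 0.717 in heterozygotes, differences of -0.52 and -0.25. Dnajb11, encoding the BiP co-chaperone ERdj3, had differences of -0.41 and -0.35, with a second bright probe at -0.29 and -0.23 and a dim one at 0.51 and 0.22, and the mean over probes was -0.06 and -0.12. Dnajb9, encoding the co-chaperone ERdj4, had differences of -0.09 and -0.11, or -0.04 in heterozygotes as the mean over probes.

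Manf and Creld2 encode stress-induced proteins that the organelle can secrete, and both were called lower on sucrose in both genotypes. Manf, a neurotrophic factor that binds BiP, had levels of 3.02 and 1.74 in wild-type and 2.76 and 1.80 in heterozygotes, differences of -0.80 and -0.62. Its other probe gave -0.77 and -0.55. Creld2, a cysteine-rich folding factor, had levels of 7.29 and 4.68 in wild-type and 7.14 and 4.34 in heterozygotes, differences of -0.64 and -0.72. For both genes the starch arrays were close to each other and well above the sucrose arrays. The probes lie at chr9:106791278-106791337 for Manf and chr15:88656997-88657056 for Creld2 (mm9).

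Among 7 degradation genes, whose products take misfolded proteins back to the cytosol for the proteasome, Derl3 stood apart from the rest. Its levels were 0.430 and 0.225 in wild-type and 0.407 and 0.210 in heterozygotes, differences of -0.94 and -0.96, or 52.3% and 51.5% of the starch signal. Its probe lies at chr10:75358606-75358665 (mm9). The other derlins, Derl2 and Derl1, had differences of -0.20 and -0.23 in wild-type and of -0.23 and -0.12 in heterozygotes. In wild-type mice the other Derl2 probe gave -0.49 and the other Derl1 probe -0.007, and the means over probes were -0.34 for Derl2 and -0.12 for Derl1. Herpud1, a membrane scaffold of the degradation complex, had differences of -0.03 and -0.16, but its other probe gave -0.24 and -0.23, and the mean over probes was -0.13 and -0.19. The ubiquitin ligase Syvn1 had differences of -0.06 and -0.08, its partner Sel1l -0.001 and -0.16, and the mannosidase-like Edem1 0.05 and -0.05. The median of the 7 genes was -0.06 in wild-type and -0.16 in heterozygotes.

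The 3 sensors had diet differences on both sides of 0. Ern1, encoding IRE1, which splices the Xbp1 transcript, had levels of 0.361 and 0.446 in wild-type and 0.474 and 0.449 in heterozygotes. The wild-type starch array was the low one, which gave a diet difference of 0.31 in wild-type against -0.08 in heterozygotes, both short of 1.5-fold. Its other probes well above background gave 0.16 and 0.03 in wild-type and -0.08 and -0.24 in heterozygotes, and the means over those and the brightest probe were 0.17 and -0.13. Eif2ak3, encoding the translation-halting kinase PERK, had differences of 0.10 and -0.11. Atf6, encoding the sensor that is cleaved into a transcription factor, had differences of -0.03 and 0.01, but its other, dimmer probe gave -0.43 and -0.09, and the mean over probes was -0.23 and -0.04.

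The 3 transcription factors were lower on sucrose in both genotypes without reaching 1.5-fold. Xbp1, which drives chaperone and degradation genes, had levels of 19.0 and 15.1 in wild-type and 19.5 and 13.8 in heterozygotes, differences of -0.33 and -0.50. Its other probes gave -0.61 and -0.44 in wild-type and -0.53 and -0.52 in heterozygotes. The splicing of Xbp1 was not measured by these values. Atf4, the effector of PERK and of amino acid shortage, had levels of 34.1 and 28.5 in wild-type and 38.9 and 27.7 in heterozygotes, differences of -0.26 and -0.49. Ddit3, encoding the pro-apoptotic factor CHOP, had differences of -0.34 and -0.26, but its other probe gave -0.006 and -0.07. The mean over both probes was -0.17 and -0.16.

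Of the 3 targets of that stress branch, Chac1 was lower on sucrose in both genotypes by a like amount, Trib3 mainly in heterozygotes, and Ppp1r15a in neither by more than 0.01. Chac1, which degrades glutathione, had levels of 3.04 and 2.34 in wild-type and 3.29 and 2.31 in heterozygotes, differences of -0.38 and -0.51. Trib3, a pseudokinase that dampens ATF4 signalling, had dim levels of 0.172 and 0.165 in wild-type and 0.231 and 0.143 in heterozygotes. Its heterozygous starch array was the high one. The differences of -0.06 and -0.70 gave an interaction of -0.64, the only member past 1.5-fold there, against a background of 2.43% lower and 5.59% higher. Under normexp background correction the heterozygous difference was -0.57, short of 1.5-fold, and no member had an interaction past it. Of the 34 genes, 19 had a negative interaction, where 49.2% of all genes did. Ppp1r15a, which restores translation by dephosphorylating eIF2α, had differences of 0.07 and -0.01.

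The brightest probes of the translocation and processing genes had differences of at most 0.10 in size. Sec61b, a subunit of the translocation channel, had differences of -0.09 and -0.01, Ssr1, of the translocon-associated complex, 0.10 and 0.03, and Sec11c, of the signal peptidase, -0.10 and 0.10. A second bright Sec61b probe gave -0.26 in wild-type and 0.01 in heterozygotes, and the mean over probes was -0.18 and 0.002. Ssr1 was the only one of the 34 genes higher on sucrose in both genotypes, and under median scaling its heterozygous difference was -0.003.

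**Figure D2:**
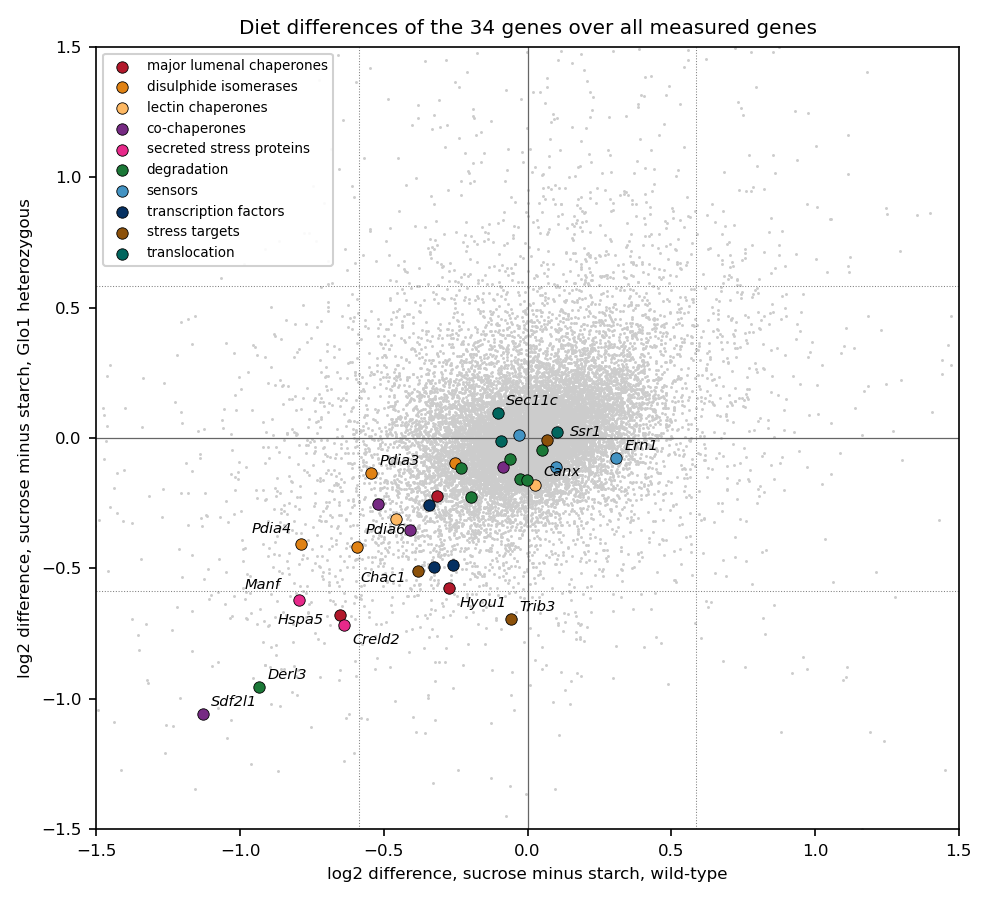
Log2 difference of sucrose minus starch in wild-type (horizontal) and in Glo1 heterozygous mice (vertical) for the 34 genes, coloured by role, over all 19166 measured genes in grey; dotted lines mark 1.5-fold, each point rests on 1 pooled array a group, and 240 genes lie outside the frame. Sdf2l1, Derl3, Manf, Creld2 and Hspa5 lie below both negative lines, and no member lies past a positive line.

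The genotype differences of the 34 genes centred on 0. On starch 17 genes were lower, where 54.6% of all genes were, and 17 higher in heterozygotes, with a median of 0.001, and none passed 1.5-fold, against a background of 2.4% lower and 1.26% higher. On sucrose 21 were lower, where 55.3% of all genes were, and 13 higher, with a median of -0.03, and again none passed, against 1.22% lower and 3.26% higher. The genotype medians changed sign between settings, from -0.04 to 0.03 on starch and from -0.07 to 0.02 on sucrose. On starch the highest difference was 0.43 for Trib3, followed by 0.40 for Ern1, and the lowest was -0.30 for P4hb. On sucrose the highest was 0.26 for Pdia4 and the lowest -0.21 for Trib3. The array of heterozygotes on sucrose set against that of wild-type mice on starch had 30 of the 34 genes lower, where 53.2% of all genes were. Of these, 5 were lower by 1.5-fold (background 3.32%) and none higher (background 3.82%), with a median of -0.28 and values down to -1.31 for Sdf2l1. That comparison shares its arrays with the diet and genotype comparisons and adds no separate measurement.

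**Figure D3:**
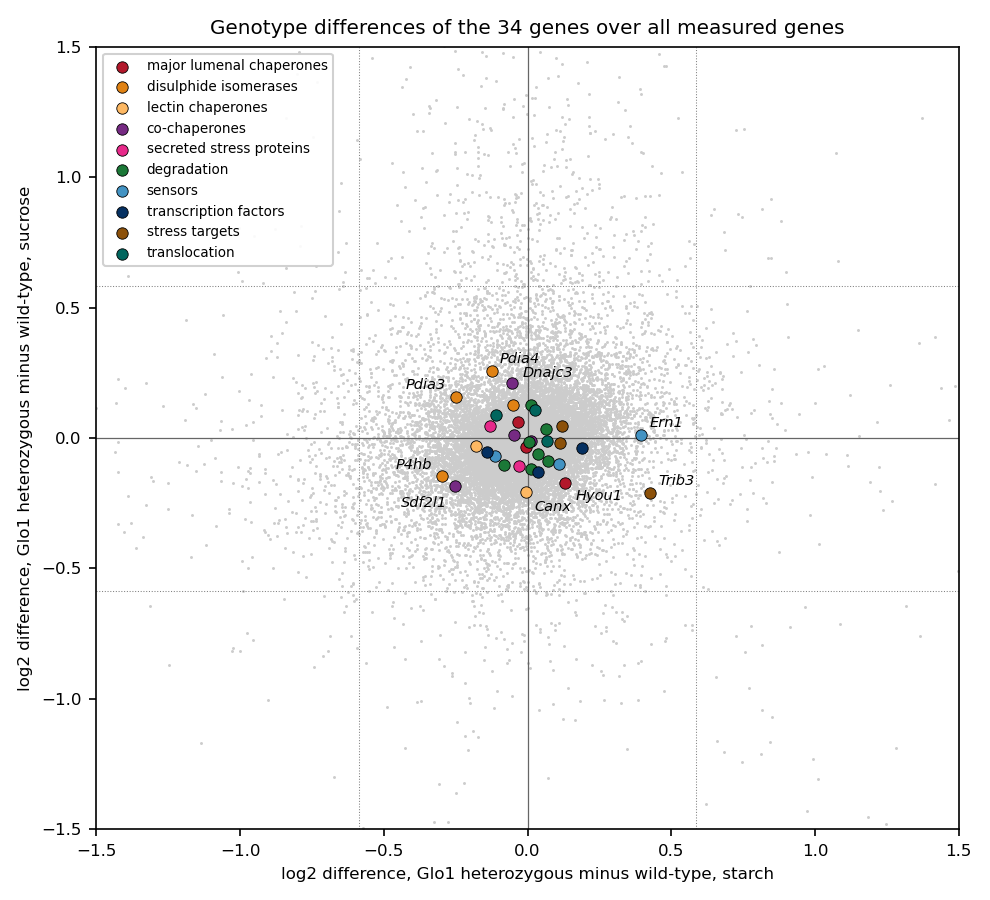
Log2 difference of Glo1 heterozygous minus wild-type mice on starch (horizontal) and on sucrose (vertical) for the 34 genes, coloured by role, over all 19166 measured genes in grey; dotted lines mark 1.5-fold, each point rests on 1 pooled array a group, and 189 genes lie outside the frame. All 34 genes lie inside the dotted lines, with Trib3 and Ern1 farthest to the right.

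Other probes gave a second reading of the same RNA. Of 64 probes for the 34 genes, 27 probes of 20 genes were well above background beside the brightest one. The diet difference had the sign of the brightest probe for 22 of the 27 in wild-type and 23 in heterozygotes. For genotype it was 16 on starch and 19 on sucrose. The probes with the other sign belonged to Dnajb11, Hyou1, Edem1 and Sel1l in wild-type mice, where Sel1l had 0.18 and 0.69 beside -0.001 and a mean over probes of 0.29. In heterozygotes they belonged to Dnajb11, Dnajb9, Sec61b and Atf6, of which all but the Dnajb11 probe had values within 0.1 of 0. Probes printed 10 times on the array gave an SD of a difference between single spots of 0.07 in the brightest quartile, which held 23 of the genes, 0.12 in the next, which held 9, and 0.13 in the quartile of Hyou1 and Trib3. These SDs rest on 1164, 20 and 12 pairs of a probe and an array, so the last 2 are less well founded. They cover spot noise and not the spread between mice.

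**Figure D4:**
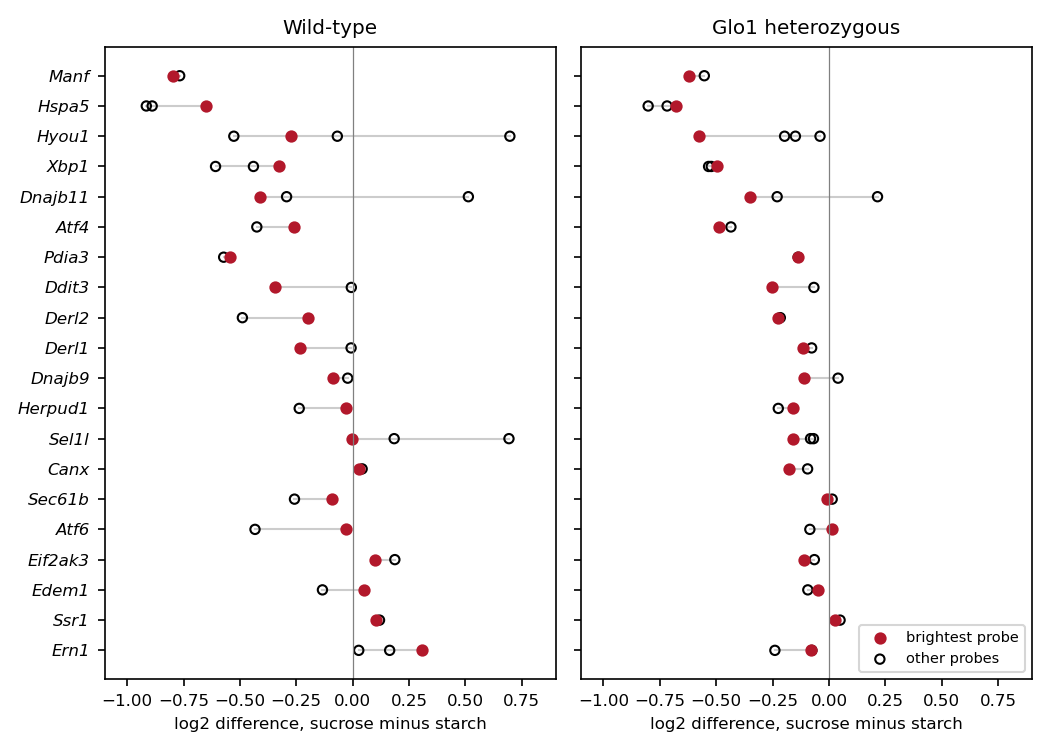
Log2 difference of sucrose minus starch in wild-type (left) and Glo1 heterozygous mice (right) for the 20 genes with more than 1 probe well above background; red points are the brightest probe, open circles the other probes and grey lines the range. The probes of Hspa5, Manf, Xbp1 and Atf4 all lie left of 0 in both genotypes, while those of Hyou1, Dnajb11 and Sel1l spread to both sides in wild-type mice.

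Wider lists of the same pathways had medians closer to 0, with single genes well away from it. Of 46 measured genes in a wider list of folding and glycosylation factors, 21 were lower and 11 higher in both genotypes, with a median mean diet difference of -0.03. Over all genes, 30.5% were lower and 30.4% higher in both. In the wider translocation list 12 of 23 were lower and 3 higher in both, with a median of -0.01. In the wider degradation list 7 of 24 were lower and 8 higher, with a median of 0.02. In the list of integrated stress response genes and other sensors 22 of 44 were lower and 9 higher, with a median of -0.06. None of these genes passed 1.5-fold in both genotypes in either direction. In wild-type mice 4 of the 44 integrated stress response genes were lower by 1.5-fold or more, where 3.47% of all genes were. They were the transcription factors Atf5, at -1.005, Atf6b, at -0.89, and Atf3, at -0.885, and the asparaginyl-tRNA synthetase Nars, at -0.77, and their heterozygous differences were -0.09, 0.07, -0.49 and -0.03. The folding factor Fkbp2 had -0.91 in wild-type and -0.09 in heterozygotes. For Atf5, Atf6b, Nars and Fkbp2 the wild-type starch array was the high one, and it enters their wild-type diet differences. On starch these genes were lower in heterozygous than in wild-type mice, with differences of -0.61, -0.77, -0.72 and -0.98. In heterozygotes none of these wider lists held a gene lower by 1.5-fold, and Stc2, a secreted glycoprotein, was higher at 0.69 against -0.34 in wild-type. Its levels were very dim, at 0.0135 and 0.0107 in wild-type and 0.0105 and 0.0170 in heterozygotes. No repeated probe lay in that quartile of brightness, so no spot SD covers them. A list of cytosolic heat shock genes, most of whose products help fold proteins outside the organelle, had 23 of 30 genes lower and 2 higher in both. That is 76.7% lower, with a median of -0.17. The list also holds the mitochondrial chaperone genes Hspa9, Hspd1 and Hspe1 and the transcription factor genes Hsf1 and Hsf2. Its members past 1.5-fold in both were Hspb1, a small heat shock protein, with -0.92 and -0.87, and Hspa1b, an inducible Hsp70, with -0.98 and -0.69. Beside these stand 76.5% lower, 5 past 1.5-fold and a median of -0.28 for the 34 genes. Over all genes 30.5% were lower in both and 0.798% were lower by 1.5-fold in both. The lists were not tested against each other.

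Some other gene lists differed between the diets along with the 34 genes. Immediate early genes, which report recent neuronal activity, were lower on sucrose in both genotypes for 11 of 12, where 30.5% of all genes were. Fos, Fosb, Egr1, Egr2 and Npas4 were past 1.5-fold lower in both, where 0.798% of all genes were. The summed level of the 12 was 73.4 and 52.1 in wild-type and 84.1 and 48.1 in heterozygotes. All 6 blood genes were past 1.5-fold lower in both genotypes, against the same 0.798%. Their summed levels were 277 and 135 in wild-type and 235 and 152 in heterozygotes. The part of these genes in the lower chaperone signals was not tested. Endothelial markers summed to 44.4 and 35.7 in wild-type and 41.6 and 35.0 in heterozygotes, but 4 of 10 were lower in both, where 30.5% of all genes were, and 5 of 10 were higher in wild-type mice. The lower sum in wild-type mice came mainly from Ly6c1, at 19.09 and 12.04, and Cldn5, at 4.60 and 3.10. Markers of plasma and B cells, which are rich in these chaperones, summed to between 0.220 and 0.250 on the 4 arrays. Lower in both genotypes were 3 of the 8, where 30.5% of all genes were. Of those 8, the plasma cell genes Jchain and Mzb1 were dim and had differences of -0.92 and -0.51 in wild-type and of -0.04 and -0.02 in heterozygotes. Their part was not tested. Astrocyte, microglia and oligodendrocyte markers were each lower in both genotypes for 5 of 10, and higher in both for 3, 1 and 1. Their median mean diet differences were -0.13, -0.07 and -0.04, and the part of these cells was not tested. The striatal markers were higher on sucrose in wild-type and lower in heterozygotes for 10 of 10. Their part was not tested.

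**Figure D5:**
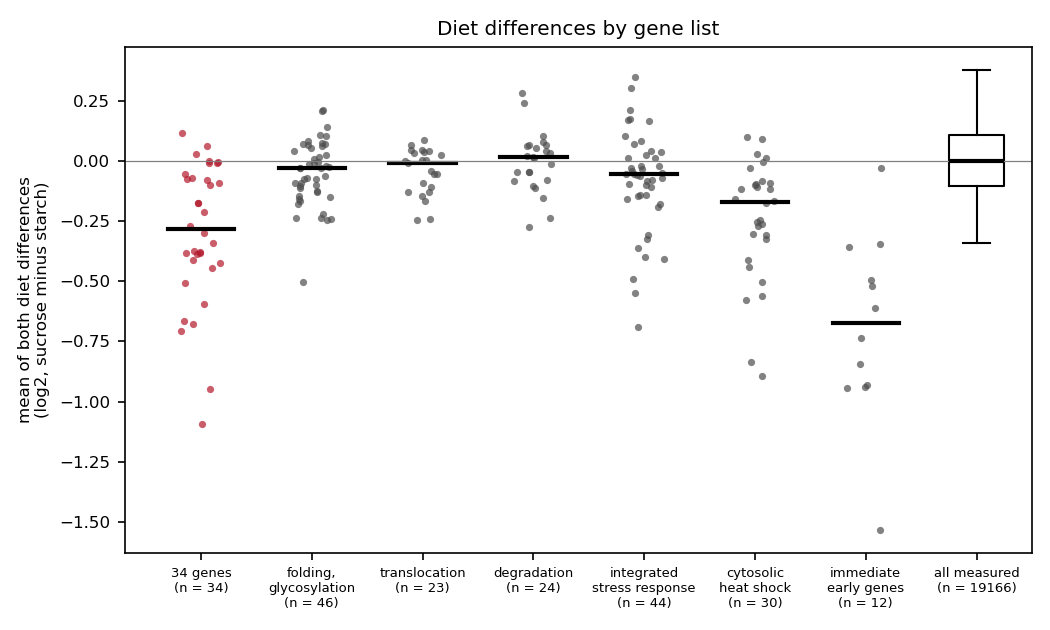
Mean of both diet differences (log2, sucrose minus starch) for each gene of the 34 and of 6 further lists, with a bar at the list's median; the box for all 19166 measured genes spans its quartiles and the whiskers its 5th to 95th percentiles, -0.34 to 0.38. The medians of the 34 genes, at -0.28, of cytosolic heat shock genes, at -0.17, and of immediate early genes, at -0.67, lie below the lower quartile of -0.10.

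Set against the promoter letters, the 9 genes with an exact stress element had a median mean diet difference of -0.39, with a range of -0.95 for Derl3 to -0.07 for Syvn1, and 8 of the 9 were lower in both genotypes. The 20 genes with a window but no exact element had a median of -0.19, with a range of -1.095 for Sdf2l1 to 0.12 for Ern1, and 15 of the 20 were lower in both. Over all genes 30.5% were lower in both. The ranges overlapped, and other motifs split the genes differently. The motif contains CCAAT and CCACG, each of which was found in the windows of 23 of the 29 genes and in 37.41% and 32.77% of all windows. With and without CCAAT the medians were -0.34 and -0.01, and with and without CCACG they were -0.27 and -0.32. The related second stress element, which is ATTGG, 1 base and CCACG and so also holds CCACG and CCAAT read on the other strand, was found for Dnajb11 and Herpud1, or 6.9% against 0.04% of all windows, with medians of -0.24 with it and -0.30 without. The XBP1-type letters TGACGTGG were found for none of the 29 genes and in 0.68% of all windows. The ATF4-type letters TGATGNAA were found for Chac1, Herpud1 and Trib3, or 10.3% against 3.97%, and the cyclic AMP response letters TGACGTCA for Ppp1r15a alone, or 3.4% against 1.79%. These matches describe the letters and do not show binding.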

How the data were processed

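The authors deposited the scanner files of Agilent Feature Extraction 11.5.1.1, whose processed signals are intensity values, background-subtracted and detrended within each array per the file headers. The series matrix deposited by the authors holds 1 ratio per spot, the processed signal over the array's 75th percentile. No step between arrays is given in the sources used here. All 4 arrays lay on 1 slide, so position and group cannot be told apart.

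Here, control spots and outlier spots were left out, the spots of a probe were averaged, signals were divided by the 75th percentile over an array's non-control spots, and log2 differences were taken between arrays. Gene names were matched to the RefSeq table of GRCm38.p6 (23666 symbols and 1121 synonyms of the 36693 names in the files), and 19166 had a probe well above background on all 4 arrays. Levels on all arrays are printed for Hspa5, for the 10 members lowest by mean diet difference, for members past 1.5-fold and for a few others of each role. Members and lists were chosen with earlier results of these data known. A model across the 4 arrays would rest on 1 residual degree of freedom and was left out. Alternatives were run with Python 3.11.15, R 4.3.3 and limma 3.58.1, and the scripts were tested on simulated data. Promoter windows came from RefSeq, GRCm38.p6.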

Additional observations from a re-analysis of the deposited data

How the results depend on the processing

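No replicate block was used, since each group had 1 array and the labels number no replicates. A fit that pairs the diets within each genotype, with 1 residual degree of freedom, could have been made and was left out. Under median scaling, quantile normalisation, cyclic loess, normexp background correction, the series matrix values, the mean over probes, no filter on dim probes and only probes above the median signal, the same number of genes, 5, was lower by 1.5-fold on sucrose in both genotypes, and between 24 and 26 genes were lower in both. The setting with probes above the median signal held 32 of the 34 genes, without Hyou1 and Trib3. Over these settings the median of the genes was between -0.26 and -0.20 in wild-type and between -0.25 and -0.18 in heterozygous mice. Single 1.5-fold calls that differed were Pdia6 in wild-type mice, lost under quantile normalisation and cyclic loess (6 genes in place of 7), Trib3 in heterozygotes, lost under normexp, and Hyou1 in heterozygotes, gained under median scaling, quantile normalisation and cyclic loess. The threshold moved the counts most. At 2-fold, 1 gene was lower on sucrose in wild-type mice (0.95% of all genes), 1 in heterozygotes (0.459%), 1 in both (0.0991%) and 2 (0.61%) when heterozygotes on sucrose were set against wild-type mice on starch, and none had such an interaction (0.741% lower, 2.02% higher). At a log2 difference of 0.32 the same counts were 14 (10.2% of all genes), 13 (6.25%), 10 (2.57%) and 15 (10.8%), with 2 genes higher in heterozygotes on starch (4.98%) and interactions of 2 genes lower (8.0%) and 2 higher (13.4%). The interaction of Trib3 was past 1.5-fold in neither the normexp setting nor the one with probes above the median signal, each giving 0 genes; the second setting leaves out Trib3 as too dim, and for normexp the cause was not tested. Taking the mean over probes turned the sign of 2 diet differences in wild-type mice (Sel1l, to 0.29, and Edem1, to -0.04), 2 in heterozygotes (Atf6 and Sec61b), 7 genotype differences on starch and 5 on sucrose. Larger in the main setting than 1 SD of a spot difference were Hyou1 on sucrose, turned to 0.011, and Ddit3 on starch, turned to 0.056. Both lay close to that SD, Hyou1 at -0.17 against 0.13 and Ddit3 at -0.14 against 0.12. Each scaling turned at most 2 signs in a diet comparison and at most 7 in a genotype comparison. Hyou1 and Trib3 are the members with signals closest to background, so their values are the least precise.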

Other observations

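In the list of integrated stress response genes, a few genes outside the naming rule were looked at after their values were seen. Atf3, a transcription factor of stress and of neuronal activity, had levels (starch, then sucrose) of 0.0654 and 0.0354 in wild-type mice and 0.0735 and 0.0522 in heterozygotes, differences of -0.89 and -0.49. Gadd45a, a growth arrest gene, had differences of -0.41 and -0.57. Genes of the list that lay the other way in both genotypes included Cebpb, a stress-induced transcription factor, with 0.20 and 0.49, Mbtps1, the protease that cleaves ATF6, with 0.30 and 0.13, and Vldlr, a lipoprotein receptor, with 0.19 and 0.15. Over the whole list 22 of 44 genes were lower and 9 higher in both. Among the cytosolic heat shock genes Hspa1a, an inducible Hsp70, had differences of -0.66 and -0.35, and its co-chaperone Dnajb1 had -0.27 in both genotypes, while Bag3 had -0.03 and 0.08. Over the 34 genes of the endoplasmic reticulum, the heterozygous sucrose array was the lowest for 19, where it was for 26.8% of all genes, and the highest for none, against 21.7%. The wild-type starch array was the highest for 16, against 31.7%, and the heterozygous starch array for 15, against 19.6%.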
